A study of Homo sapiens with 7 samples.

Results

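The genes described here are the axon guidance ligands and receptors, namely the ephrins and their EPH receptors, the semaphorins with their plexin and neuropilin receptors, the SLIT ligands and ROBO receptors, and the netrins with the UNC5 receptors. Membership was set by a rule on gene symbols, which was chosen with earlier results of these data known. Of the 21305 genes in the table, 54 matched. RNA was sequenced from 501Mel, a human melanoma cell line, in stably transduced cells whose short hairpin RNA was induced with doxycycline. Of the 7 libraries, 3 carried the control hairpin shlacZ against a bacterial gene, 2 carried sh4 and 2 carried sh8, both against the long non-coding RNA GRASLND. All 7 libraries were induced, so all groups share the vector, the drug and an active hairpin. Per the methods of the study, the lines were pools of transduced cells rather than single clones, and nothing in the labels says whether replicates came from separate cultures, so that p-values may measure a technical spread. The labels do not tie sh4 and sh8 to the hairpin names of the study.

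Guidance cues steer growing axons and migrating neural crest cells, the embryonic cells from which melanocytes arise. Secreted class 3 semaphorins act through a neuropilin that binds the ligand and a plexin that signals, while most membrane-bound semaphorins bind plexins directly. Ephrins are anchored to the cell surface and bind EPH receptor tyrosine kinases on the neighbouring cell, SLIT proteins repel cells through ROBO receptors, and netrins attract or repel through DCC, neogenin and the UNC5 receptors.

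The values are normalized counts, in which the reads of each gene were divided by a scaling factor of the library. Of the 54 genes, 47 had a mean of at least 10 normalized counts over the 7 libraries and were tested, among 15420 genes tested in all. Calls were made by limma on log2(normalized count + 1), where the Benjamini-Hochberg adjusted p over all 15420 genes was under 0.05, and every fold change below is a difference on that log2 scale, followed by its standard error. The depth was 13337317 to 22855232 reads per library. The first shlacZ library lay somewhat apart, with a standard deviation over genes of the log2 difference of 0.635 and 0.624 to the other control libraries, which differed from each other by 0.466. GRASLND was at 309, 330 and 290 normalized counts in the shlacZ libraries, 175 and 131 in sh4, and 227 and 163 in sh8. Every knockdown library lay below every control library, by 0.85 on average on the log2 scale, with an exact two-sided permutation p of 0.0571 over 35 splits, where the smallest possible p is 0.0286. In limma GRASLND was called under sh4 (-1.02, adjusted p = 0.00662) and pooled (-0.85, adjusted p = 0.0402), and not under sh8 (-0.68, adjusted p = 0.11).

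Under sh4, 24 of the 47 tested guidance genes were called, 16 higher and 8 lower than in the control, while 10.5% of all tested genes were called higher and 11.9% lower. The sh8 libraries gave 3 calls higher and 0 lower in limma (14 and 2 at an unadjusted p under 0.05), against 1.38% and 1.54% of all tested genes, and limma-voom gave the same counts of calls. In the direct comparison of sh4 with sh8, 8 were called higher and 6 lower, against 3.67% and 3.33% of all tested genes. With both hairpins pooled against the control, 2 were called higher and 1 lower, against 2.55% and 2.06% of all tested genes. The median log2 fold change of the 47 genes was 0.17 under sh4 and 0.31 under sh8, beside -0.01 over all tested genes in each, and 0.30 pooled, beside -0.01. The comparisons with the control share the same 3 control libraries. In all, 25 guidance genes were called in at least 1 comparison, 2 of them (SEMA3A and ROBO2) under each hairpin, and 1 (EPHA4) under sh8 and not sh4. Over all tested genes, 3464 were called under sh4 and 451 under sh8, and how many were shared was not counted. The few shared guidance genes are therefore not read as a trait of this gene set. At the rule of the study, which also asks for a fold change over 1 on the log2 scale, sh4 gave 13 called genes and sh8 gave 1. Over all 15420 tested genes, 1259 met that rule under sh4 and 178 under sh8.

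The counts under sh4 and sh8 moved with single libraries. Under sh4, 15 guidance genes were called without the second shlacZ library, and 13 without either the first or the second sh4 library. Under sh8, 8 were called without the first shlacZ library. Over all tested genes, the calls under sh8 went from 2.92% to 10.4% in that fit. Those under sh4 went from 22.5% to 14.6% without the second shlacZ library. No gene was called in limma under sh8 without the first sh8 library (16 at an unadjusted p under 0.05) or without the second (8), where limma-voom on all libraries called 3. The direct comparison gave 6 and 3 calls without the first or second sh4 library, and 4 without the first or 8 without the second sh8 library. Pooled, 1 gene was called without the second shlacZ, the third shlacZ or the first sh4 library, and 8 without the first sh8 library. Over all tested genes the pooled calls went from 4.61% to 0.415%, 0.571%, 1.12% and 7.42% in these fits, in that order. In each fit above with a library left out, the share of all tested genes called moved in the same direction as the guidance gene count. SEMA3D, EPHA3 and SLIT1 were the 3 genes called both in sh4 against control and in sh4 against sh8 in each of the 17 alternative fits.

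**Figure D1:**
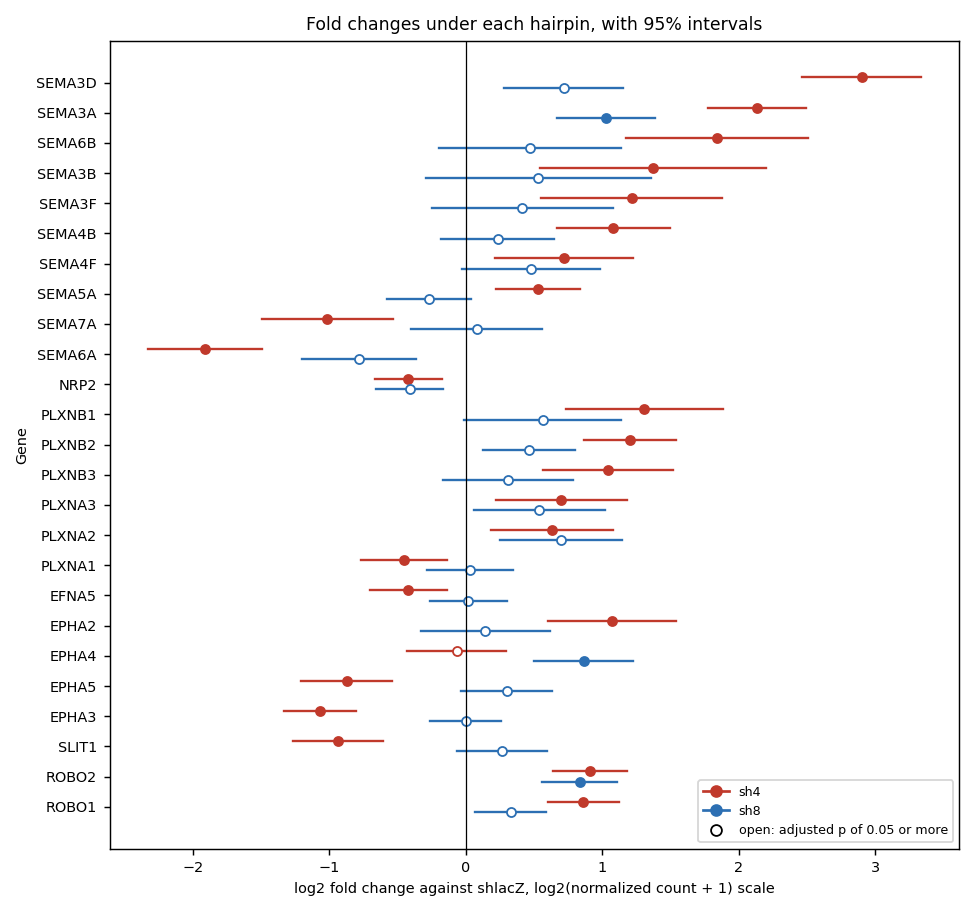
Points are log2 fold changes against shlacZ on the log2(normalized count + 1) scale for the 25 called genes (rows), in red for sh4 (n = 2) and blue for sh8 (n = 2) against the control (n = 3), with 95% intervals from limma, filled where the adjusted p is under 0.05. Of the sh4 points 24 are filled, and of the sh8 points 3, those of SEMA3A, EPHA4 and ROBO2.

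The promoter windows of these genes give the sequence context. RefSeq windows on GRCh38.p14, from 250 bases before to 50 after the start, were available for 22 of the 25 called genes (all except SEMA3A, SEMA6A and SEMA6B), and several genes have more than 1. The first 3 windows below belong to SEMA3D, EPHA3 and SLIT1, shown because they kept both sh4 calls in each of the alternative fits. They hold none of the 4 searched motifs on either strand, and so no capitals.
SEMA3D (chr7:85187007-85187306, minus strand): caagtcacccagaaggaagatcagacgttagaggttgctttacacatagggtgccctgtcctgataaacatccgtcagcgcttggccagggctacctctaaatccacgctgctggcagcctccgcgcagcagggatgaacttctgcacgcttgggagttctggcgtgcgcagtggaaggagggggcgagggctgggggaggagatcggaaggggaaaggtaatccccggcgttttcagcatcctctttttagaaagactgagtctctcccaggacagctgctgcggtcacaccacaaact
EPHA3 (chr3:89107371-89107670, plus strand): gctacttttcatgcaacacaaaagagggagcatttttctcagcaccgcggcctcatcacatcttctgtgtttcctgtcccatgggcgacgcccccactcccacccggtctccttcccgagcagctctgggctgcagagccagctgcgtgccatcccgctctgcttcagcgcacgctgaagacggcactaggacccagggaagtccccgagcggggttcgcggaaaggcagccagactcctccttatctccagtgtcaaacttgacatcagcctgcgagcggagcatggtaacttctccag
SLIT1 (chr10:97185910-97186209, minus strand): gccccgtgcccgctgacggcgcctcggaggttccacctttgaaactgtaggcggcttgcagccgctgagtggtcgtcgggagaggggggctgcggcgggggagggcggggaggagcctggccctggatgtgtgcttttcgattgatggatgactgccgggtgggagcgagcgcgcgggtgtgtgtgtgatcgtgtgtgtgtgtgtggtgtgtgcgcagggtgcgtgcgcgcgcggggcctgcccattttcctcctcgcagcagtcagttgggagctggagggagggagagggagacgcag
The motifs searched on both strands were CATGTG, the core of the M-box that MITF can bind, CACGTG, the palindromic E-box, CTTTGAT, a TCF/LEF site, and TGANTCA, an AP-1 site. CATGTG stood in 4 of the 36 windows of the called genes, each of a different gene, CTTTGAT in 1 of these, and CACGTG and TGANTCA in none of the 22. Of all 35116 promoter windows, 11.1% held CATGTG, 7.26% CACGTG, 2.62% CTTTGAT and 7.71% TGANTCA. The 4 windows with a match are printed because PLXNB2, ROBO1 and SEMA3F were called higher under sh4 and NRP2 lower. Capitals mark CATGTG or its reverse complement, and in SEMA3F also CTTTGAT.
PLXNB2 (chr22:50301620-50301919, minus strand): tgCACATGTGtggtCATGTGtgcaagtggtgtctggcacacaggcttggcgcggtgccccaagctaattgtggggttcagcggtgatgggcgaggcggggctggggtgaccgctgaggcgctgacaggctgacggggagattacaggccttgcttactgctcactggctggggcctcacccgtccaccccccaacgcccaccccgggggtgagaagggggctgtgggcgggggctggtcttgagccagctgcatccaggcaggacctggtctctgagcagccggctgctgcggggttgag
ROBO1 (chr3:79767949-79768248, minus strand): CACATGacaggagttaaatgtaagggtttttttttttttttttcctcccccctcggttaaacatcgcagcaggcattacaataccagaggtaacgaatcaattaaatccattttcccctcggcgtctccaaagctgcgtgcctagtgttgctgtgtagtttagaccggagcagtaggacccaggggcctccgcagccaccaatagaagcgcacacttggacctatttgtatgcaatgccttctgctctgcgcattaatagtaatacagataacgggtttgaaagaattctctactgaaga
NRP2 (chr2:205682251-205682550, plus strand): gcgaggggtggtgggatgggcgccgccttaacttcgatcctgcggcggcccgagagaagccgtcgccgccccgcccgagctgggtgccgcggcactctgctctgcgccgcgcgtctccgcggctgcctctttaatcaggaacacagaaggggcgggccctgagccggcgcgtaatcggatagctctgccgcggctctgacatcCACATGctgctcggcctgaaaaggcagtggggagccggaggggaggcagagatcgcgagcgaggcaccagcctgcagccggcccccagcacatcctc
SEMA3F (chr3:50158769-50159068, plus strand): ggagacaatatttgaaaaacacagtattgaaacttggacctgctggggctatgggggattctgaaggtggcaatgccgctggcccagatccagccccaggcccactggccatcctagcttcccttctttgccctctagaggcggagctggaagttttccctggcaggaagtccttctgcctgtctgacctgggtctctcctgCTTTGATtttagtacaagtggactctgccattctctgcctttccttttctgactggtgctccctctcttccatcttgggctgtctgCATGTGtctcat
A match describes the letters of a window and does not show binding. In PLXNB2 overlapping matches make the first run of capitals longer than a single motif.

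The levels in the control give the repertoire of 501Mel cells. Per kilobase of exon, the highest semaphorin was SEMA5A at 1059 ± 104 normalized counts (SD, n = 3). Among the receptors of the semaphorins, PLXNC1 led the plexins at 721 ± 10.8 and NRP2 the neuropilins at 536 ± 40.6 per kilobase. The next semaphorins, SEMA6A at 562 ± 82.9 and SEMA4C at 541 ± 42.0 per kilobase, did not differ beyond their spread. EPHA3 at 353 ± 29.7 and EPHA4 at 319 ± 62.6 per kilobase, the highest EPH receptors, likewise lay within each other's spread. EFNA5 was the highest ephrin at 106 ± 3.91 per kilobase. For the SLIT system, ROBO1 stood at 512 ± 19.1 and SLIT1 at 313 ± 46.3 per kilobase. NTN1 reached 53.0 ± 5.83 and UNC5B, the single UNC5 receptor in the table, 1.53 ± 0.13 per kilobase. The 7 genes under the minimum mean were named by their highest normalized count in any library. These peaks were 4.48 for NRP1, 2.73 for PLXNA4, 5.27 for EPHA10, 6.59 for EPHB2, 10.5 for SEMA4A, 4.52 for SLIT2 and 7.33 for NTN4. Transcripts of NRP2, the neuropilin that SEMA3F binds, were among the highest of the set per kilobase, and those of NRP1, the neuropilin that SEMA3A binds, were at or near 0.

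**Figure D2:**
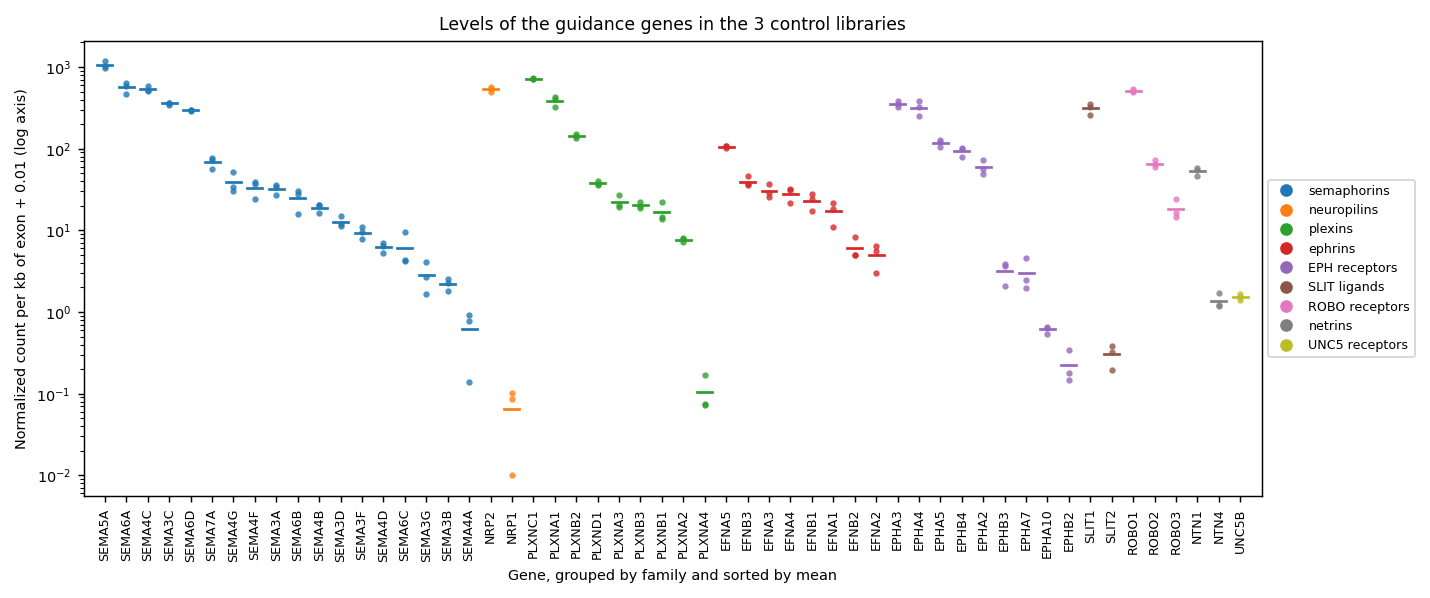
Points are normalized counts per kilobase of exon plus 0.01 (log axis) in each of the 3 shlacZ libraries for all 54 genes, grouped by family and sorted by mean, with a bar at the mean. SEMA5A is highest at 1059, and NRP1 lowest at 0.0555.

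Of the secreted class 3 semaphorins, SEMA3A, SEMA3B, SEMA3D and SEMA3F were called higher under sh4, and SEMA3C (-0.30, adjusted p = 0.115) and SEMA3G (0.29, adjusted p = 0.718) were not called. SEMA3D was at 99.1, 92.2 and 124 normalized counts in the shlacZ libraries, 775 and 793 in sh4, and 152 and 195 in sh8. The sh4 libraries lay far above all others, and the sh8 libraries lay above all 3 controls. The log2 fold change was 2.90 ± 0.19 under sh4 (limma, adjusted p = 6.83e-05), the largest among the guidance genes in that comparison, and 0.72 ± 0.19 under sh8 (adjusted p = 0.0835). The difference between the hairpins was 2.18 ± 0.21 (adjusted p = 0.00113). SEMA3A, a repulsive cue, was at 335, 248 and 311 normalized counts in shlacZ, 1236 and 1368 in sh4, and 569 and 643 in sh8. No library of 1 group overlapped another group. It was called in all 4 comparisons, with 2.13 ± 0.16 under sh4 (limma, adjusted p = 8.00e-05), 1.03 ± 0.16 under sh8 (adjusted p = 0.0113), 1.58 pooled (adjusted p = 0.0234) and 1.10 ± 0.18 for sh4 over sh8 (adjusted p = 0.00662). SEMA3A and SEMA3D are neighbours in this gene set on the minus strand of chromosome 7 in hg38, at chr7:83955777-84492724 and chr7:84995553-85187056, and are 503 kb apart. SEMA3C, on the same arm at chr7:80742538-80922359, was at 2119, 2232 and 2207 normalized counts in shlacZ, 1591 and 1984 in sh4 and 2221 and 2399 in sh8, and was not called.

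SEMA3F and SEMA3B lie 78.5 kb apart on the plus strand of chromosome 3, and both were called higher under sh4. SEMA3F, a ligand of NRP2, was at 45.4, 37.7 and 53.1 normalized counts in shlacZ, 121 and 92.5 in sh4, and 47.5 and 76.4 in sh8. The sh4 libraries lay above all others, whereas sh8 overlapped the control. Its fold change was 1.22 ± 0.30 under sh4 (limma, adjusted p = 0.0165) and 0.41 ± 0.30 under sh8 (adjusted p = 0.499). SEMA3B was low, at 14.4, 10.5 and 13.0 normalized counts in shlacZ, 33.9 and 34.3 in sh4, and 21.1 and 16.4 in sh8. The fold change was 1.37 ± 0.37 under sh4 (limma, adjusted p = 0.0251) and 0.53 ± 0.37 under sh8 (adjusted p = 0.488). Its exons share a strand with those of the microRNA gene MIR6872, so reads there could belong to either. Neither gene was called between the hairpins, with adjusted p-values of 0.179 for SEMA3F and 0.259 for SEMA3B.

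Among the membrane-bound semaphorins, the class 6 members SEMA6A and SEMA6B moved in opposite directions under sh4. SEMA6A, a transmembrane ligand of A-type plexins, was at 6934, 6302 and 5152 normalized counts in shlacZ, 1961 and 1334 in sh4, and 3929 and 3184 in sh8. All 4 knockdown libraries lay below all controls, with sh4 below sh8. It fell by 1.91 ± 0.19 on the log2 scale under sh4 (limma, adjusted p = 0.000191), whereas the fold change of -0.78 ± 0.19 under sh8 was not called (adjusted p = 0.0565). SEMA6A was also called lower when pooled (-1.35, adjusted p = 0.0429) and for sh4 against sh8 (-1.13 ± 0.20, adjusted p = 0.011). The pooled call of SEMA6A was kept in 8 of the 17 alternative fits and lost, among others, under both other scalings and when any single shlacZ or sh4 library was left out. SEMA6B was at 133, 74.4 and 144 normalized counts in shlacZ, 384 and 428 in sh4, and 125 and 195 in sh8. The sh4 libraries stood above all others and the sh8 libraries overlapped the control. Its fold change was 1.84 ± 0.30 under sh4 (limma, adjusted p = 0.00244), 0.47 ± 0.30 under sh8 (adjusted p = 0.445) and 1.37 ± 0.33 between the hairpins (adjusted p = 0.0349).

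SEMA4B, a transmembrane semaphorin, was at 141, 115 and 142 normalized counts in shlacZ, 279 and 282 in sh4, and 145 and 167 in sh8. It was called under sh4 (1.08 ± 0.19, limma adjusted p = 0.00318) and between the hairpins (0.84 ± 0.20, adjusted p = 0.036). SEMA4F, of the same class, was at 230, 150 and 242 normalized counts in shlacZ, 318 and 352 in sh4, and 253 and 317 in sh8. Both hairpins lay above the control, and sh4 was called at 0.72 ± 0.23 (limma, adjusted p = 0.0459), close to the threshold and kept in 9 of the 17 alternative fits. The most abundant semaphorin, SEMA5A, was at 14416, 11878 and 12812 normalized counts in shlacZ, 19581 and 17926 in sh4, and 9630 and 12031 in sh8. It rose by 0.53 ± 0.14 under sh4 (limma, adjusted p = 0.0225), while the value under sh8 was -0.27 ± 0.14 (adjusted p = 0.337). The hairpins differed by 0.80 ± 0.15 (adjusted p = 0.0134). SEMA7A, a membrane-anchored ligand of PLXNC1, was at 212, 275 and 291 normalized counts in shlacZ, 141 and 113 in sh4, and 235 and 314 in sh8. The sh4 libraries were below all others, with a fold change of -1.02 ± 0.21 (limma, adjusted p = 0.00851), and sh8 gave 0.08 ± 0.21 (adjusted p = 0.88). SEMA7A was called lower in sh4 than in sh8 (-1.09 ± 0.23, adjusted p = 0.0221). Of the 17 tested semaphorins, 8 were called higher and 2 lower under sh4, and 1 higher and 0 lower under sh8, with fold changes from -1.91 to 2.90 and from -0.78 to 1.27. The shares over all tested genes were 10.5% (higher) and 11.9% (lower) for sh4, and 1.38% and 1.54% for sh8.

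**Figure D3:**
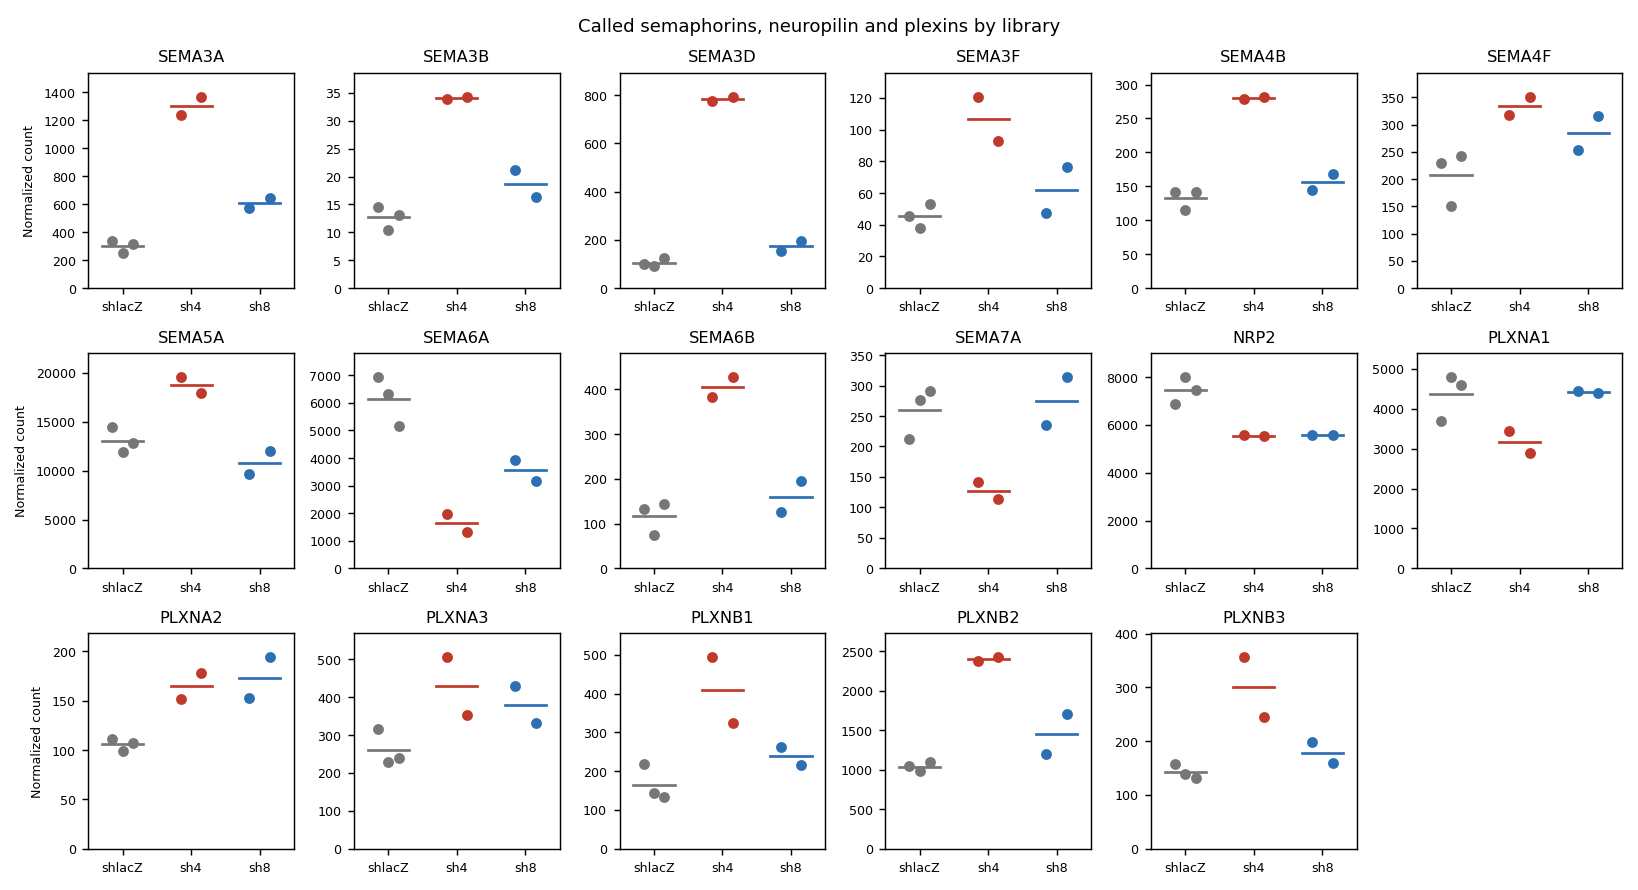
Each panel shows 1 called semaphorin, neuropilin or plexin, with the normalized count (linear axis from 0) of each library as a point and the group mean as a bar, for shlacZ (3 libraries), sh4 (2) and sh8 (2). SEMA3D reaches 793 in sh4 and at most 124 in shlacZ, and SEMA6A at most 1961 in sh4 and at least 5152 in shlacZ.

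The receptors of the semaphorins divided by type. The 3 B-type plexins, which bind class 4 and 5 semaphorins, were all called higher under sh4. PLXNB2 was at 1041, 986 and 1091 normalized counts in shlacZ, 2374 and 2420 in sh4, and 1201 and 1701 in sh8. Its fold change was 1.21 ± 0.15 under sh4 (limma, adjusted p = 0.000654), 0.46 ± 0.15 under sh8 (adjusted p = 0.139) and 0.75 ± 0.17 between the hairpins (adjusted p = 0.0256). All knockdown libraries of PLXNB2 lay above all controls, and the sh4 libraries lay above the sh8 libraries. PLXNB1, a receptor of SEMA4D, was at 219, 143 and 133 normalized counts in shlacZ, 494 and 325 in sh4, and 262 and 217 in sh8, with a fold change of 1.31 ± 0.26 under sh4 (limma, adjusted p = 0.00614). PLXNB3, a receptor of SEMA5A, was at 158, 139 and 132 normalized counts in shlacZ, 356 and 245 in sh4, and 198 and 159 in sh8, with 1.04 ± 0.21 under sh4 (limma, adjusted p = 0.00727). In both genes the sh4 libraries lay above all controls, but differed from each other by more than the sh8 libraries did. PLXNB3 shares exon sequence on the same strand with SRPK3, so reads there could be split between them.

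A-type plexins, the partners of neuropilins, went both ways under sh4. PLXNA1 was at 3692, 4792 and 4589 normalized counts in shlacZ, 3452 and 2895 in sh4, and 4442 and 4402 in sh8, with -0.45 ± 0.14 under sh4 (limma, adjusted p = 0.0427). PLXNA2 was at 111, 99.5 and 107 normalized counts in shlacZ, 151 and 178 in sh4, and 153 and 194 in sh8, with 0.63 ± 0.20 under sh4 (limma, adjusted p = 0.0479). PLXNA3 was at 316, 229 and 239 normalized counts in shlacZ, 505 and 352 in sh4, and 428 and 331 in sh8, with 0.70 ± 0.22 under sh4 (limma, adjusted p = 0.0429). All 3 calls lay near the threshold and were kept in 7 (PLXNA1 and PLXNA3) or 6 (PLXNA2) of the 17 alternative fits. For PLXNA2 and PLXNA3 the sh8 libraries were also above every control without a call (0.70 and 0.54, adjusted p = 0.0968 and 0.222). NRP2 was at 6875, 8003 and 7447 normalized counts in shlacZ, 5569 and 5524 in sh4, and 5586 and 5588 in sh8. The 4 knockdown libraries were close together and below all controls, with -0.42 ± 0.11 under sh4 (limma, adjusted p = 0.022) and -0.41 ± 0.11 under sh8 (adjusted p = 0.0813). PLXNC1 and PLXND1 were not called in any comparison. In the tested plexins, 5 of 8 were called higher and 1 lower under sh4, and limma called none under sh8 (3 at an unadjusted p under 0.05, all higher), where fold changes ran from -0.09 to 0.70. The shares over all tested genes were 10.5% (higher) and 11.9% (lower) for sh4, and 1.38% and 1.54% for sh8.

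The EPH receptors differed from one another in direction. EPHA3 was at 2501, 2346 and 2113 normalized counts in shlacZ, 1129 and 1077 in sh4, and 2266 and 2360 in sh8. The sh4 libraries lay below all others, at -1.07 ± 0.12 against the control (limma, adjusted p = 0.000332) and -1.07 ± 0.13 against sh8 (adjusted p = 0.00194), while the value under sh8 had a 95% interval from -0.26 to 0.26. EPHA5 was at 1199, 1042 and 1248 normalized counts in shlacZ, 652 and 616 in sh4, and 1242 and 1641 in sh8. Here too the sh4 libraries lay below all others, at -0.87 ± 0.15 against the control (limma, adjusted p = 0.00319) and -1.17 ± 0.16 against sh8 (adjusted p = 0.00384). EPHA4, which binds ephrins of both types, showed the opposite arrangement. Its normalized counts were 1920, 2449 and 2864 in shlacZ, 2320 and 2230 in sh4, and 4024 and 4662 in sh8. The sh8 libraries stood above all others, with 0.86 ± 0.16 against the control (limma, adjusted p = 0.0233), while sh4 overlapped the control at -0.06 ± 0.16 (adjusted p = 0.817). The hairpins differed by -0.93 ± 0.18 for sh4 against sh8 (adjusted p = 0.014). EPHA2, an EPH receptor often found in epithelial and tumour cells, was at 201.3, 235.7 and 300.1 normalized counts in shlacZ, 474 and 552 in sh4, and 229 and 313 in sh8. It rose by 1.07 ± 0.21 under sh4 (limma, adjusted p = 0.00603) and was higher in sh4 than in sh8 by 0.93 ± 0.23 (adjusted p = 0.0404). EPHB4, the main receptor of EFNB2, was not called, with -0.43 under sh4 and -0.23 under sh8.

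Of the 8 ephrins, the ligands of these receptors, 1 was called under sh4. This was EFNA5, at 614, 626 and 583 normalized counts in shlacZ, 448 and 459 in sh4, and 601 and 630 in sh8. The sh4 libraries lay below all others, at -0.42 ± 0.13 against the control (limma, adjusted p = 0.0382), and sh8 gave 0.02 ± 0.13 (adjusted p = 0.957). The call of EFNA5 was kept in 6 of the 17 alternative fits. The 8 ephrins had fold changes from -0.47 to 0.61 under sh4 and from -0.20 to 0.94 under sh8, and limma called none under sh8 (2 at an unadjusted p under 0.05, both higher). Over all tested genes, 22.5% were called under sh4 and 2.92% under sh8. EFNA3 and EFNA4 share exons with the read-through gene EFNA4-EFNA3.

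SLIT1 was called lower and its receptors ROBO1 and ROBO2 higher under sh4. SLIT1, a secreted repellent, was at 3209, 2392 and 2995 normalized counts in shlacZ, 1457 and 1514 in sh4, and 3090 and 3782 in sh8. It was lower in sh4, at -0.94 ± 0.15 against the control (limma, adjusted p = 0.00223) and -1.20 ± 0.16 against sh8 (adjusted p = 0.0033), whereas sh8 overlapped the control at 0.27 ± 0.15 (adjusted p = 0.385). SLIT1 shares exons with the read-through gene ARHGAP19-SLIT1 on the same strand, so reads there could be split. ROBO1 was at 5561, 5903 and 5520 normalized counts in shlacZ, 9476 and 11156 in sh4, and 6798 and 7432 in sh8. The groups did not overlap, with 0.86 ± 0.12 under sh4 (limma, adjusted p = 0.000984), 0.33 ± 0.12 under sh8 (adjusted p = 0.172) and 0.53 ± 0.13 between the hairpins (adjusted p = 0.0358). ROBO2 was called under each hairpin. Its normalized counts were 1200, 1096 and 992 in shlacZ, 2125 and 1989 in sh4, and 2009 and 1888 in sh8. Every knockdown library lay above every control library, with 0.91 ± 0.12 under sh4 (limma, adjusted p = 0.000957), 0.83 ± 0.12 under sh8 (adjusted p = 0.00823) and 0.87 pooled (adjusted p = 0.00627). The hairpins differed by 0.08 ± 0.13 (adjusted p = 0.792). ROBO1 and ROBO2 lie on chromosome 3 on opposite strands, 947 kb apart, at chr3:78597239-79767998 and chr3:75906695-77649964. ROBO3, which in mammals binds SLIT proteins weakly, was not called (0.75 under sh4, adjusted p = 0.0974). NTN1 and UNC5B were not called in any comparison.

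**Figure D4:**
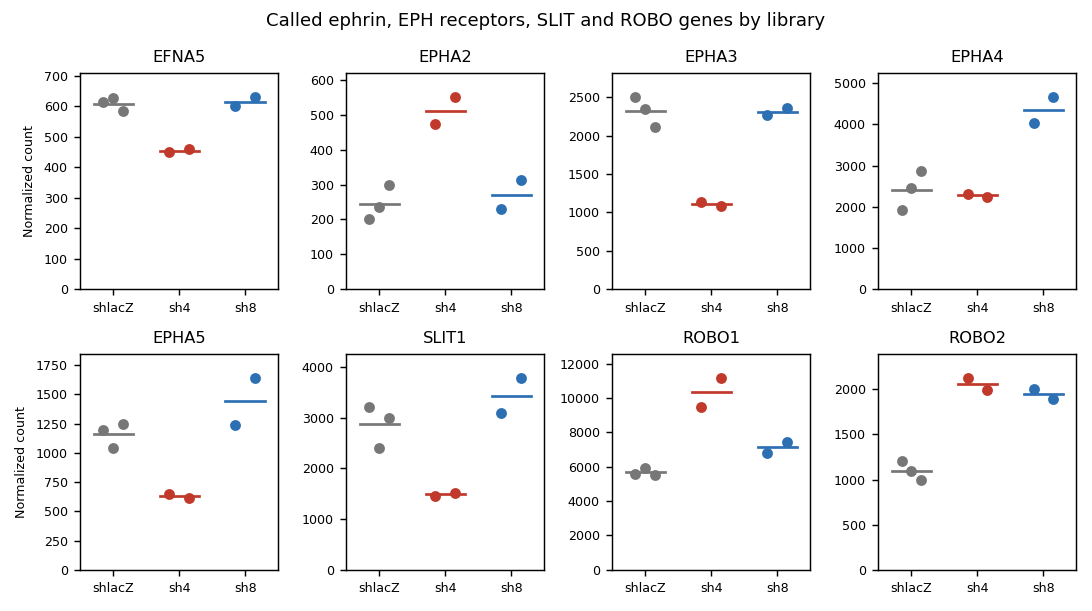
Each panel shows 1 called ephrin, EPH receptor, SLIT or ROBO gene, with the normalized count (linear axis from 0) of each library as a point and the group mean as a bar, for shlacZ (3 libraries), sh4 (2) and sh8 (2). ROBO2 is at 1888 to 2125 in the 4 knockdown libraries and at most 1200 in shlacZ, and EPHA4 reaches 4024 and 4662 in sh8 alone.

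The largest fold changes that missed the threshold were EPHB3 (-1.03), EPHA7 (-0.80) and ROBO3 (0.75) under sh4, SEMA6C (1.27), EFNA1 (0.94) and SEMA6A (-0.78) under sh8, SEMA3D (1.81), SEMA6B (1.16) and SEMA6C (0.99) pooled, and EPHB3 (-1.30), EFNA3 (-1.04) and EFNA2 (-0.90) for sh4 against sh8. Several of these genes were read at low counts, where the interval is wide. SEMA3D, at 92.2 to 793 normalized counts over the libraries, was not among them. Its standard error was 0.55 in the pooled fit, whose 2 levels count a difference between the hairpins as spread, and 0.19 under sh4.

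The co-receptors and signal carriers of these pathways were followed through a list of 97 genes, of which 81 were in the table and 73 were tested. Under sh4, 15 were called higher and 10 lower, under sh8 3 higher and 0 lower in limma (12 and 8 at an unadjusted p under 0.05), and between the hairpins 8 higher and 2 lower. Over all tested genes the shares were 10.5% higher and 11.9% lower under sh4, 1.38% and 1.54% under sh8, and 3.67% and 3.33% between the hairpins. The median log2 fold change of the list was 0.04 under sh4 and 0.01 under sh8, beside -0.01 over all tested genes. The 3 genes called under sh8 were also called under sh4. CHL1, an L1 family adhesion molecule that joins semaphorin receptors, was at 2501, 2423 and 3249 normalized counts in shlacZ, 11570 and 12210 in sh4, and 4557 and 6549 in sh8, with 2.14 under sh4 (limma, adjusted p = 9.30e-05) and 1.02 under sh8 (adjusted p = 0.0163). CHN2, a Rac GTPase-activating protein, was at 452, 483 and 411 normalized counts in shlacZ, 1406 and 1795 in sh4, and 873 and 819 in sh8, with 1.82 and 0.92 (limma, adjusted p = 9.05e-05 and 0.0124). MICAL2, of a family of actin-oxidizing enzymes that includes plexin partners, was at 570, 924 and 914 normalized counts in shlacZ, 1578 and 2239 in sh4, and 2342 and 2500 in sh8, with 1.26 and 1.62 (limma, adjusted p = 0.0035 and 0.00582). In all 3 genes every knockdown library lay above every control, and CHL1 and CHN2 were higher in sh4 than in sh8 (1.12 and 0.91, limma adjusted p = 0.00871 and 0.00961). Among the calls lower under sh4 was ENAH, an actin regulator of the Ena/VASP family (-0.83, limma adjusted p = 0.00201).

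Some markers of the cell type differed between the same groups. All 9 melanocytic markers were present in the table, and their summed level was 137601 to 148540 normalized counts in shlacZ, 54140 to 62007 in sh4 and 104336 to 107281 in sh8. The single markers did not all go one way. MITF, SOX10, DCT, TYRP1, MLANA and PMEL were lower in both sh4 libraries than in every control, and TYR, PAX3 and S100B were not. MITF was at 17326 to 22076 in shlacZ, 12619 and 11635 in sh4, and 19031 and 17418 in sh8. MLANA was at 7531 to 8640.5 in shlacZ, 3330 and 2077 in sh4, and 5298 and 5291 in sh8. PMEL was at 35872 to 37928 in shlacZ and at 16969 and 13673 in sh4. TYR was at 8192 to 9420 in shlacZ, 10288 and 9183 in sh4, and 9200.5 and 11314 in sh8. PAX3 was at 1643 to 1909 in shlacZ, 1939 and 1858 in sh4, and 2519 and 2444 in sh8. S100B was at 247 to 288 in shlacZ, 331 and 414 in sh4, and 273 and 353 in sh8. The summed level of the 3 of 7 neural crest markers in the table was 438 to 537 in shlacZ, 162 to 235 in sh4 and 224 to 291 in sh8. Nearly all of this sum was RXRG, at 428 to 535 in shlacZ and 226 and 140 in sh4, whereas NGFR (0 to 2.06 in shlacZ, 2.26 and 12.7 in sh4) and AQP1 (1.74 to 9.43 in shlacZ, 6.78 and 9.70 in sh4) were low in both groups. For the 2 of 4 neuron markers the summed level was 1105 to 1617 in shlacZ, 723 to 911 in sh4 and 953 to 1026 in sh8. Nearly all of that sum was TUBB3, at 1086 to 1608 in shlacZ, 719 and 906 in sh4, and 944 and 1020 in sh8. SNAP25 was at 3.39 to 19.6 across the libraries. The fibroblast marker COL1A1, 1 of 5, was at 5.24 to 16.4 across the libraries. Endothelial, keratinocyte and leukocyte markers were not analysed here. Whether the lower sum of the melanocytic markers has a part in the guidance gene changes was not tested. In bulk RNA, fewer cells of a kind and less RNA per cell cannot be told apart.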

How the data were processed

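RNA-seq was analysed in 7 libraries of 501Mel cells. Per the labels, stranded libraries were prepared after removal of ribosomal RNA. The authors trimmed adapters with Cutadapt, aligned reads to hg38 (GRCh38) with STAR, quantified genes with Salmon and scaled counts in DESeq2, and tool versions are not given in the sources used here. They deposited 1 table of normalized counts, which are gene counts divided by a size factor per library. Dividing by the value of 1 read gave whole numbers for 100% of entries within a tolerance of 0.1, so depth was read from the recovered reads, 13337317 to 22855232 per library, and this limits genes with few reads to counting error. No column belonged to other samples.

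From these values, log2(normalized count + 1) was tested with limma 3.58.1 in R 4.3.3 with the empirical Bayes variance trend, for genes with a mean of at least 10, with Benjamini-Hochberg adjustment over all 15420 genes. The pooled comparison used 2 levels, and the others came from 1 fit of 3 groups with a shared spread. The scale understates changes of low genes. A shift common to most transcripts would be scaled away. The fit was tested on simulated data. GENCODE release 44 on hg38 gave coordinates and exon lengths, and matched 21281 identifiers.

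The genes described in full were those called in at least 1 comparison and the highest per kilobase in each family. The members, the list of pathway genes and the markers were chosen with earlier results of these data known. SLIT1, PLXNB3, SEMA3B, EFNA3 and EFNA4 overlap other genes on the same strand. Alternatives covered the pseudocount, the minimum mean, 2 scalings, the variance trend, a replicate block, the groups in the fit, the call rule and each library left out. limma-voom on the recovered reads, and the alternatives for GRASLND, were added after seeing the data.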

Additional observations from a re-analysis of the deposited data

Results flagged for a closer look

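The change against the control differed between the hairpins for 14 guidance genes, by the direct limma comparison of sh4 with sh8 (n = 2 each, adjusted p under 0.05 over all tested genes). On the log2 scale, sh4 lay above sh8 for SEMA3D (2.18), SEMA6B (1.37), SEMA3A (1.10), EPHA2 (0.93), SEMA4B (0.84), SEMA5A (0.80), PLXNB2 (0.75) and ROBO1 (0.53). It lay below sh8 for SLIT1 (-1.20), EPHA5 (-1.17), SEMA6A (-1.13), SEMA7A (-1.09), EPHA3 (-1.07) and EPHA4 (-0.93). Of these 14, 13 were also called under sh4 against the control, and EPHA4 was called under sh8 instead. No group held enough libraries to test whether a single one was set apart. By its spread to the other controls, given above, the first shlacZ library lay somewhat apart.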

How the results depend on the processing

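The guidance genes called numbered 3 pooled, 24 under sh4, 3 under sh8 and 14 for sh4 against sh8. Both other pseudocounts, both other minimum means, both other scalings and limma-voom stayed within 1.5 times of these counts. Without the variance trend the counts were 1 pooled, 18 under sh4, 0 under sh8 (14 at an unadjusted p under 0.05 in limma) and 5 for sh4 against sh8. With the mean of both hairpins taken from the 3-group fit, the pooled comparison called 15, while the calls over all tested genes went from 4.61% to 16.4%. At the call rule of the study, 307 of all 15420 tested genes were called pooled, 1259 under sh4, 178 under sh8 and 492 for sh4 against sh8. The guidance gene counts at that rule were 2 pooled, 13 under sh4, 1 under sh8 and 8 for sh4 against sh8, since a second condition was added. With each library left out in turn they ranged from 1 to 8 pooled, 13 to 28 under sh4, 0 to 8 under sh8 and 3 to 16 for sh4 against sh8, and a group left with 1 library was assumed to vary like the others. The 0 calls under sh8 arose without either sh8 library, with 16 and 8 genes at an unadjusted p under 0.05 in limma. The share called over all tested genes moved as well, from 0.415% to 7.42% in the pooled comparison with a library left out. Apart from the call rule, the cause of the changed counts was not tested.

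With the replicate number of the labels as a replicate block, 0 genes were called pooled (14 at an unadjusted p under 0.05 in limma), 21 under sh4, 4 under sh8 and 15 for sh4 against sh8. Over all tested genes the shares called were then 0.272% pooled, 21.9% under sh4, 3.72% under sh8 and 9.51% for sh4 against sh8. Deviations of same-numbered libraries from their group means correlated at 0.0337 to 0.337, except at -0.0781 for the second shlacZ and second sh8 libraries. With 2 libraries per hairpin, the deviations of the 2 mirror each other, so these correlations cannot decide whether the number pairs the samples. The main fits held no replicate block, and pairing was left unsettled.

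Of 747 values for single called genes under 17 alternative fits, 602 kept their call, 145 kept the direction without the call and 0 changed sign. The difference in GRASLND ran from -0.99 to -0.73 on the log2 scale over its alternatives, with exact permutation p-values from 0.0571 to 0.1. Depth limits the genes near the minimum mean, such as SEMA3B, EPHB3 and UNC5B, and 2 libraries per hairpin limit every interval.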
